A study of Mus musculus with 5 samples.

Results

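Remote NKX2-1 regions are places far from any protein-coding gene where all 4 antibodies against NKX2-1 gave a peak. The peaks of the 4 lists were merged wherever they overlapped by at least 1 bp, which gave 68919 regions, and 31606 of these held a peak of every antibody. A four-antibody region was kept when its summit, taken from its peak with the highest pileup, lay outside all protein-coding genes of RefSeq on mm10 and more than 50 kb from the nearest gene end. This left 3132 remote regions, or 9.91% of the four-antibody regions. The others fell into 6470 intergenic regions at 1 to 50 kb, 14901 inside genes over 1 kb from an end, and 7103 within 1 kb of a gene end. The peak calls and pileups thus chose the members, so their fold enrichments are given as a description without a test.

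The libraries came from chromatin immunoprecipitation and sequencing (ChIP-seq) of whole lung. The mice were wild-type and at postnatal day 10. The antibodies were Abcam133737, Millipore07-601, Abcam76013 and Abcam133638, with 1 library each of 43031331 to 46547989 filtered tags, and 1 input library was the common control. Values of the 4 libraries are given in this order throughout. Per the labels, chromatin was pooled before precipitation, so the libraries are not separate animals as far as the labels tell, and no value has a replicate error. Whole lung mixes many cell types. In such bulk tissue, a low signal in all cells and a high signal in few cells cannot be told apart.

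NKX2-1 is a homeodomain transcription factor of lung epithelium, thyroid and ventral forebrain. In the lung it is needed for the branching airways to form and for both alveolar type 1 (AT1) cells, the thin cells of gas exchange, and alveolar type 2 (AT2) cells, the makers of surfactant. Transcription factors often bind far from promoters, at enhancers that can act on a gene over long stretches of DNA and across genes in between. The nearest gene is therefore used below as a landmark only, and no target is inferred from it.

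Away from protein-coding genes, some members lay at the starts of long non-coding RNA (lncRNA) genes. For these the promoter table of RefSeq (GRCm38.p6, the build of mm10) holds the sequence from 250 bases before to 50 after the start. A member's summit fell in 49 of 11588 such windows, of 48 lncRNA genes, with 48 members in all. The 5 highest by mean fold are printed on the strand of the gene, as windows with and without NKX2-1 motif letters. A window can end inside the region of its member, so a window without a match does not show that the region has none. Capitals mark matches to CTCAAG or CACTNNAG, both read on either strand. The motifs can overlap, since CACTCAAG holds both.
Gm36441, chr12:25209552-25209851, minus strand: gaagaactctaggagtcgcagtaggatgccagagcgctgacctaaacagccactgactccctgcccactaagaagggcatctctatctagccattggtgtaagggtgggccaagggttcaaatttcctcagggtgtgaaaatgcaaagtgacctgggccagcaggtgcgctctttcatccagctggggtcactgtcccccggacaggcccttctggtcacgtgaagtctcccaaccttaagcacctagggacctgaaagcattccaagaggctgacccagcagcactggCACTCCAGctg
Gm41239, chr14:105822558-105822857, plus strand: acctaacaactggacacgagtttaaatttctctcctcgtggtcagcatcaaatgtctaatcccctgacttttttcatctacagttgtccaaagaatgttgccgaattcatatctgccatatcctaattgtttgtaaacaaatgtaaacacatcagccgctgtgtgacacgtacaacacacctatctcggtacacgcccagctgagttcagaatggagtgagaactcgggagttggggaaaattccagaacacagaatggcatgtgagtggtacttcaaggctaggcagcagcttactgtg
Gm29065, chr1:76019194-76019493, minus strand: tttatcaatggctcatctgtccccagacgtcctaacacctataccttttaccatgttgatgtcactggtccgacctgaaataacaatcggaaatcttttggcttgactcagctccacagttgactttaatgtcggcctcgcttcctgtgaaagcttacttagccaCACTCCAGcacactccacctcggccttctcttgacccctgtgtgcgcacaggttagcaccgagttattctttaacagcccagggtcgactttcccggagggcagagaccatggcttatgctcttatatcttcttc
4930543I11Rik, chr10:67785493-67785792, plus strand: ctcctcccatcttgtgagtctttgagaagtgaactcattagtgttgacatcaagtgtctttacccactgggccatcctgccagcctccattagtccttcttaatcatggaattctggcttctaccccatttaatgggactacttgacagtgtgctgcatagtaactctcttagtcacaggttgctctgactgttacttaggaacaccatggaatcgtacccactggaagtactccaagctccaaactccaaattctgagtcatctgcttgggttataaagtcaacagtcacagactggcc
Gm38811, chr6:51711156-51711455, minus strand: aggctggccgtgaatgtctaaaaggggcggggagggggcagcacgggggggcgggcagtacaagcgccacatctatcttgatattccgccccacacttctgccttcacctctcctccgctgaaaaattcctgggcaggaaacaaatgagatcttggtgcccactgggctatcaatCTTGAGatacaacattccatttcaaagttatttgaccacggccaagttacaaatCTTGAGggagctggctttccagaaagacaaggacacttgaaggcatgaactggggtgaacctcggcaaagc
Gm36441 lies 113 kb from Id2, a gene for an inhibitor of helix-loop-helix factors in lung tip progenitors, and its folds were 19.6, 31.9, 18.7 and 27.8. Its summit lay 33 bases past the start, 9.5 bases from the centre of the CACTNNAG match. The window of Gm41239, 69.1 kb from the FGF feedback gene Spry2, held neither motif at folds of 16.7, 27.5, 15.6 and 27.6. Gm29065, in the gene-free stretch between Slc4a3 and Epha4, had folds of 16.6, 24.8, 15.3 and 22.5, and its match lay 34.5 bases from the summit. 4930543I11Rik, 100 kb from Zfp365, had folds of 13.4, 19.2, 16.0 and 17.0, and its window held neither motif. Gm38811, 121 kb from Snx10, had folds of 10.3, 19.5, 14.2 and 17.0. Its window held 2 CTCAAG matches, the closer one 1.5 bases from the summit. In all 5 windows Abcam133737 and Abcam76013 gave the lower values, and the pair of other antibodies the higher ones.

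CTCAAG occurred in 15 of these 49 windows (30.6%, interval 18.3 to 45.4), beside 15.9% of all 32851 promoter windows and 16.9% of the 11588 lncRNA windows. CACTNNAG occurred in 16 (32.7%, 19.9 to 47.5), beside 16.0% and 17.4%. Among the 564 lncRNA windows with any four-antibody summit, these 49 included, the shares were 23.2% for CTCAAG and 21.6% for CACTNNAG, and both lie inside the intervals of the remote windows. Intervals here and below are exact binomial (Clopper-Pearson) ones at 95%, for counting error alone. One or both motifs stood in 24 windows (49.0%), in 15 of them within 50 bases of the summit. Letters bound by other factors were also counted. The TEAD letters GGAATG occurred in 16 windows (32.7%) beside 14.7%, 16.6% and, of the 564, 17.9%. The C/EBP letters TTGCNNAA were in 11 (22.4%) beside 10.8%, 12.0% and 12.9%. The AP-1 letters TGANTCA were in 7 windows (14.3%) beside 7.81%, 9.31% and 7.27%, and the forkhead letters TGTTTAC in 2 (4.08%) beside 3.65%, 4.83% and 3.90%. A match is a description of these windows and not a binding site. The intervals of the C/EBP, AP-1 and forkhead shares include those of all lncRNA windows and of the 564. That of the TEAD share, 19.9 to 47.5, lies above the 16.6% and 17.9% of these windows. Those of CTCAAG and CACTNNAG lie above the shares of all lncRNA windows but include those of the 564. Several motifs were read, the overlapping windows of Gm33162 share a member, and none of these differences was tested. Sequence under the other remote summits was not analysed here.

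A few members lay close to microRNA genes, whose products repress messenger RNAs through a seed at bases 2 to 8. Of 1005 hairpins in the RefSeq table, 10 had a remote summit within 5 kb, with 14 members. The number of hairpins in remote sequence is not given here, so this count cannot show whether members favour microRNA genes. The mature forms of 5 of them are printed with the seed in capitals, since Mir30a and Mir30c-2 share one seed and Mir29a and Mir29b-1 another.
mmu-miR-30a-5p: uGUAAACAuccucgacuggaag
mmu-miR-30c-5p: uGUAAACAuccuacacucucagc
mmu-miR-29a-3p: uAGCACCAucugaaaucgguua
mmu-miR-29b-3p: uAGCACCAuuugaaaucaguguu
mmu-miR-205-5p: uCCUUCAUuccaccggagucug
Upstream of Mir30a (chromosome 1, 23272269 to 23272339), members lay 0.643 kb and 1.19 kb away, and the farther one was the stronger at folds of 7.64, 12.5, 8.02 and 9.61. A member 4.77 kb upstream of Mir30c-2 had folds of 5.76, 4.96, 5.59 and 7.50. Mir29a and Mir29b-1, whose family is known for repressing collagen messages, shared 1 member at 0.600 and 0.963 kb past their ends, with folds of 3.71, 6.77, 3.86 and 5.39. The member 3.76 kb past the end of Mir205, an epithelial microRNA, had folds of 6.38, 7.40, 4.47 and 7.33. The strongest member beside a hairpin lay 2.66 kb upstream of Mir3089 (chromosome 2, 30718322 to 30718745), at folds of 16.3, 21.4, 12.6 and 19.8.

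Some members stood in places where the signal needs care. Beyond the first or last protein-coding gene of a chromosome lay 48 members, with a median mean fold of 4.85 (2.06 to 13.3). The mean fold is the mean of a region's 4 values. Most of these fell into short clusters at chromosome starts, 13 beside Scaf8 (chromosome 17, 3006717 to 3038546), 12 beside Vmn1r2 (chromosome 4, 3050250 to 3084328) and 7 beside Olfr161 (chromosome 16, 3231590 to 3239795). In addition, the local background was over 3 times the genome-wide value in all 4 libraries at 36 members, with a median mean fold of 3.12. It reached 17.8 to 42.1 times at 5 members between Esp15 and Esp38 (chromosome 17, 39842996 to 39848831), where RefSeq lists AY036118 and Rn18s-rs5, a relative of ribosomal RNA genes. None of either set was among the top 10% of four-antibody regions. The 3056 other members had a median mean fold of 7.55, and the whole set 7.46.

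The fold enrichment of remote regions was about that of other four-antibody regions. It is the authors' ratio of the pileup, in tags at the summit, to the local background, with 1 tag added to both. Over the members its median was 6.18, 9.31, 6.29 and 8.26 in the 4 libraries. At 1 to 50 kb the medians were 5.97, 8.67, 6.09 and 8.19, inside genes 6.15, 8.88, 6.09 and 8.30, and at gene ends 5.76, 7.61, 5.68 and 8.26. The largest gap in medians between remote regions and gene ends was thus in Millipore07-601, and Abcam133638 showed none. By the mean percentile of fold within the 4 lists, 381 members (12.2%, 11.0 to 13.4) were among the top 10.0% of four-antibody regions. That share was 10.9% at 1 to 50 kb, 11.5% inside genes and 5.03% at gene ends. Regions do not replicate one another, and these differences were not tested.

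Scaled by library depth, the median pileup of the members was 0.687, 1.09, 0.710 and 0.916 tags per 1000000 filtered tags. Millipore07-601 was the highest of the libraries at 2420 members (77.3%), and Abcam133737 the lowest at 1691 (54.0%). The highest library exceeded the lowest by a median of 1.69 times and by at most 2 times at 2604 members (83.1%). Members needed a peak of every antibody, so places where a library gave no peak are not among them. These ratios therefore describe the members and cannot show how far the libraries agree. Millipore07-601 exceeded Abcam133638 by a median of 1.18 times at remote regions, 1.13 at 1 to 50 kb, 1.14 inside genes and 0.983 at gene ends. The widest spread, 3.19 times, was at a member 76.3 kb from 1700001O22Rik, with pileups of 21, 36, 14 and 43 tags. It was followed by members 165 kb from Lratd1 (22, 62, 27 and 36 tags, 3.05 times) and 149 kb from Dipk2a (17, 47, 29 and 39 tags, 2.99 times).

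The share of merged regions found with every antibody was similar at a distance from genes. Of 6937 remote merged regions, 3132 had all 4 antibodies (45.1%, 44.0 to 46.3), beside a background of 45.9% over all regions. It was 44.3% at 1 to 50 kb and 50.0% at gene ends. A member spanned a median of 393 bp, and its 4 summits lay within a median of 43 bp, beside 478 and 54 bp at gene ends. The next four-antibody region lay within 10 kb of 42.5% of the members (40.7 to 44.2), beside 57.8% of the regions at 1 to 50 kb.

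The strongest remote regions were ranked by mean fold percentile over the libraries, so high folds in every library follow from this ranking. The first by percentile lay 50.3 kb from Nrep, which encodes a small protein of regenerating neurons, with folds of 41.0, 58.8, 44.0 and 51.4. The second lay 79.9 kb from the ribosomal protein gene Rplp1, on the side of the co-repressor gene Tle3 (chromosome 9, 61833135 to 61833657), at 41.2, 55.0, 41.4 and 45.7. Between Magi3 and Lrig2, a gene for a membrane protein that modulates growth factor receptors, the third (chromosome 3, 104372358 to 104373040) reached 38.9, 54.6, 39.4 and 49.4. None of the genes that flank these 3 regions was on the AT1 or AT2 list. These lists hold 30 genes each of 21774 protein-coding genes, so 3 regions cannot show whether strong members avoid them. The fourth was far from both neighbours, 497 kb from the leukocyte phosphatase gene Ptprc and 605 kb from the nuclear receptor gene Nr5a2 (chromosome 1, 137565058 to 137566155), at 37.9, 51.6, 38.4 and 47.0. Next came regions 99.8 kb from Sel1l, a gene of endoplasmic reticulum quality control (33.8, 55.0, 35.9 and 42.0), and 73.5 kb from Rab11fip4 (34.0, 46.3, 36.1 and 44.2). The seventh lay 326 kb from Cd83 and 602 kb from the chromatin regulator gene Jarid2 (chromosome 13, 44128768 to 44129281), at 30.9, 51.4, 35.8 and 45.0. Regions 68.6 kb from Irak1bp1, 50.1 kb from Agps and 232 kb from Rbbp8 completed the first 10, with mean folds of 36.9, 36.2 and 36.3. The last lay on the side of Gata6, an endodermal zinc finger factor gene. In all 10, Millipore07-601 was the highest, then Abcam133638, then the other pair.

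**Figure D1:**
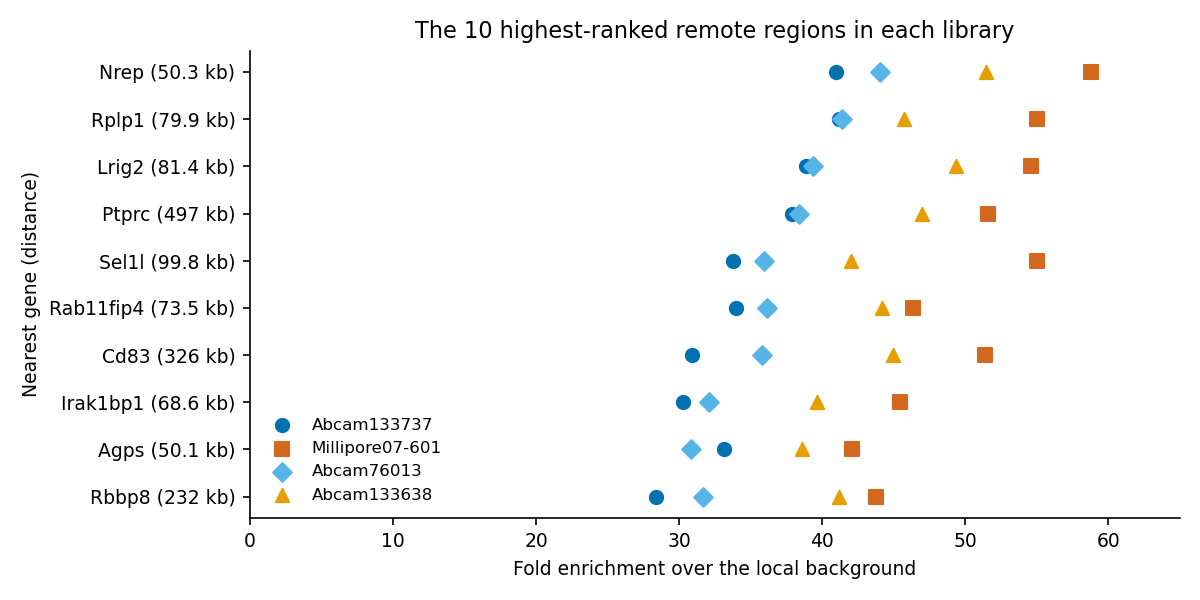
Fold enrichment over the local background (x axis) of the 10 highest-ranked remote regions, named by nearest gene and distance (y axis); each point is 1 library, with no replicates. At the region beside Nrep the values run from 41.0 to 58.8, and the square of Millipore07-601 is the rightmost in every line.

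The distance limit cut through regions of all strengths. Just inside it were members 50.1 kb from Agps, Setd4 and Marchf10, at mean folds of 36.2, 9.04 and 5.70. Just outside were regions 50.0 kb from Abcd3 and 49.9 kb from Gpc5 and Ppara, at 7.91, 5.36 and 7.02. The median member lay 117 kb from the nearest gene end, with quartiles of 75.3 and 212 kb. Over 500 kb away were 134 members (4.28%), and over 1000 kb 14.

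The farthest members were called as strongly as nearer ones. The farthest lay 1485 kb from Tenm2, a teneurin adhesion gene (chromosome 11, 38721746 to 38722088), at folds of 11.9, 18.8, 12.6 and 12.9. A pair between the bile acid transporter gene Slc10a2 and the ephrin gene Efnb2 lay 1411 kb from the one (chromosome 8, 6515960 to 6516659) and 1410 kb from the other (7207049 to 7207746). The first of them had folds of 10.1, 16.7, 10.1 and 11.9, and the second 19.0, 28.0, 19.9 and 25.0. Neighbouring members 1348 and 1349 kb from Zeb2, a zinc finger repressor gene, had mean folds of 24.5 and 7.90.

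Density fell with distance while fold did not. Outside genes, four-antibody regions numbered 103 per Mb within 1 kb of a gene end, 15.5 at 1 to 5 kb and 7.93 at 25 to 50 kb. Remote regions numbered 5.75 per Mb at 50 to 100 kb, 4.16 at 100 to 200 kb, 2.33 at 200 to 500 kb and 0.619 beyond 500 kb. The median mean fold of the same distance classes was 7.47, 7.50, 7.48 and 7.98, beside 7.25 at 25 to 50 kb. In Millipore07-601 alone the medians were 9.10, 9.31, 9.31 and 10.9, the last over 134 members. Between the first and last genes of the chromosomes, 976 Mb were remote, with 3.16 members per Mb. These lengths count every base of the assembly, also bases to which no reads can be assigned, and how far that moves the density was not tested.

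**Figure D2:**
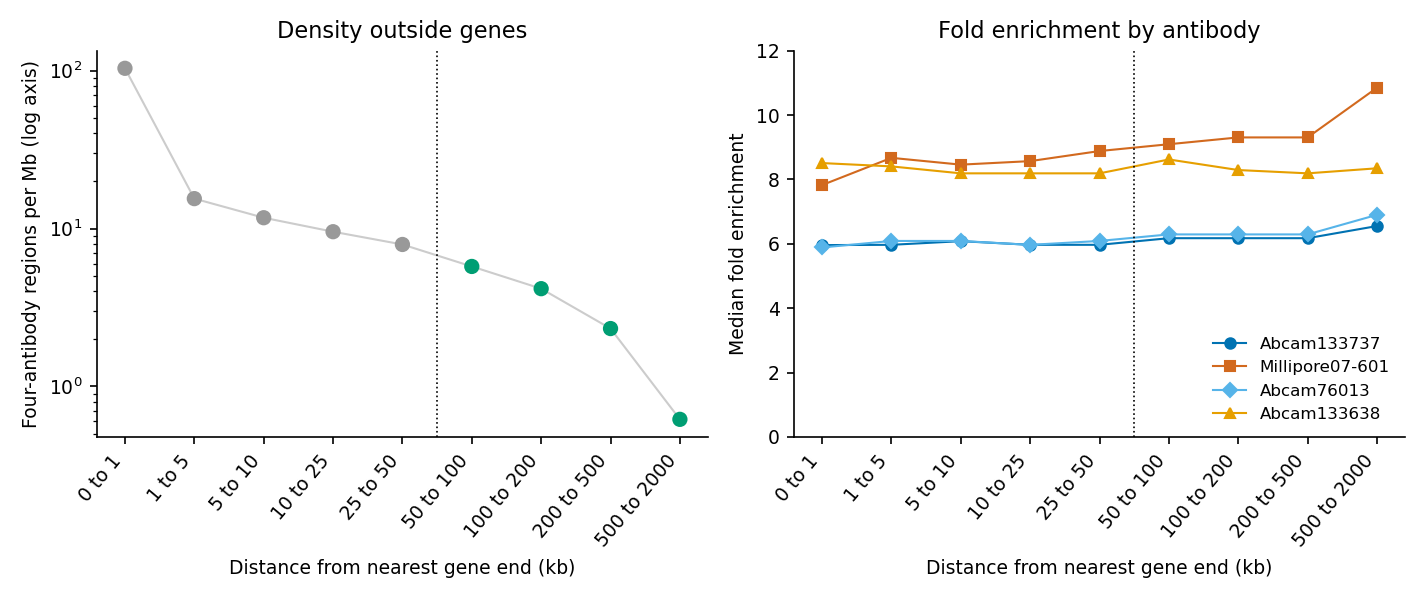
Left, four-antibody regions per Mb outside genes (log axis) by distance from the nearest gene end (kb); green points are the remote distances, right of the dotted line at 50 kb, and grey points the nearer ones. Right, median fold enrichment of the same regions, 1 line per antibody library: density falls from 5.75 to 0.619 per Mb over the remote distances, while the median fold of Abcam133638 stays between 8.19 and 8.62 there.

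Density also fell with the size of the gene-free gap in which a region lay. A gap here is a stretch over 100 kb between adjacent protein-coding genes. At 50 to 100 kb from a gene end, members numbered 8.42 per Mb in gaps of 100 to 200 kb, 6.02 in gaps of 200 to 500 kb, 3.65 in gaps of 500 to 1000 kb and 2.97 in larger ones. Within gaps of 500 to 1000 kb, density changed little with distance, at 3.65, 3.59 and 3.09 per Mb over 50 to 100, 100 to 200 and 200 to 500 kb. In gaps over 1000 kb it was 2.97, 2.61 and 1.73. The nearest 50 kb held 6.74 and 6.18 per Mb in these groups of gaps. At the same distance, larger gaps thus held fewer regions per Mb.

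**Figure D3:**
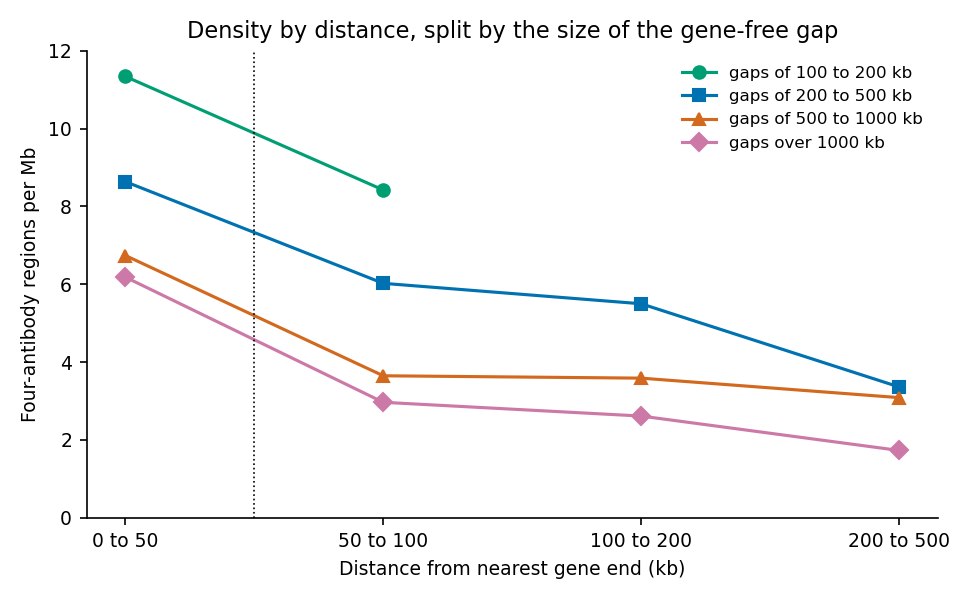
Four-antibody regions per Mb (y axis) by distance from the nearest gene end in kb (x axis), 1 line per size class of gene-free gap; points right of the dotted line are remote regions. At 50 to 100 kb the density is 8.42 per Mb in the smallest gaps and 2.97 in the largest.

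Members were unevenly spread over gaps. Of 2946 gaps, 943 (32.0%) held at least 1 member, and 389 held exactly 1. The 58 gaps with 10 or more held 764 members, 24.4% of all, in 4.83% of the remote sequence. The most, 23, lay between Irf2bp2, a transcriptional co-repressor gene, and Tomm20, a mitochondrial import gene (chromosome 8, 126593987 to 126930663). Their mean folds ran from 3.06 to 34.3 with a median of 9.89, and the median spacing was 4.76 kb. The strongest of them lay in the lncRNA gene Gm31718, at folds of 30.4, 41.4, 29.2 and 36.2. Between Serp2 and Lacc1 (chromosome 14, 76557075 to 77021738) 22 members had mean folds of 3.58 to 22.5. The 20 members between Klf14 and Mkln1 (chromosome 6, 30958991 to 31398827), at 4.71 to 23.5, included the one beside Mir29a and 9 in the lncRNA gene Lncpint. Within 50 kb of the flanking genes, these 3 gaps held 8, 3 and 4 four-antibody regions.

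**Figure D4:**
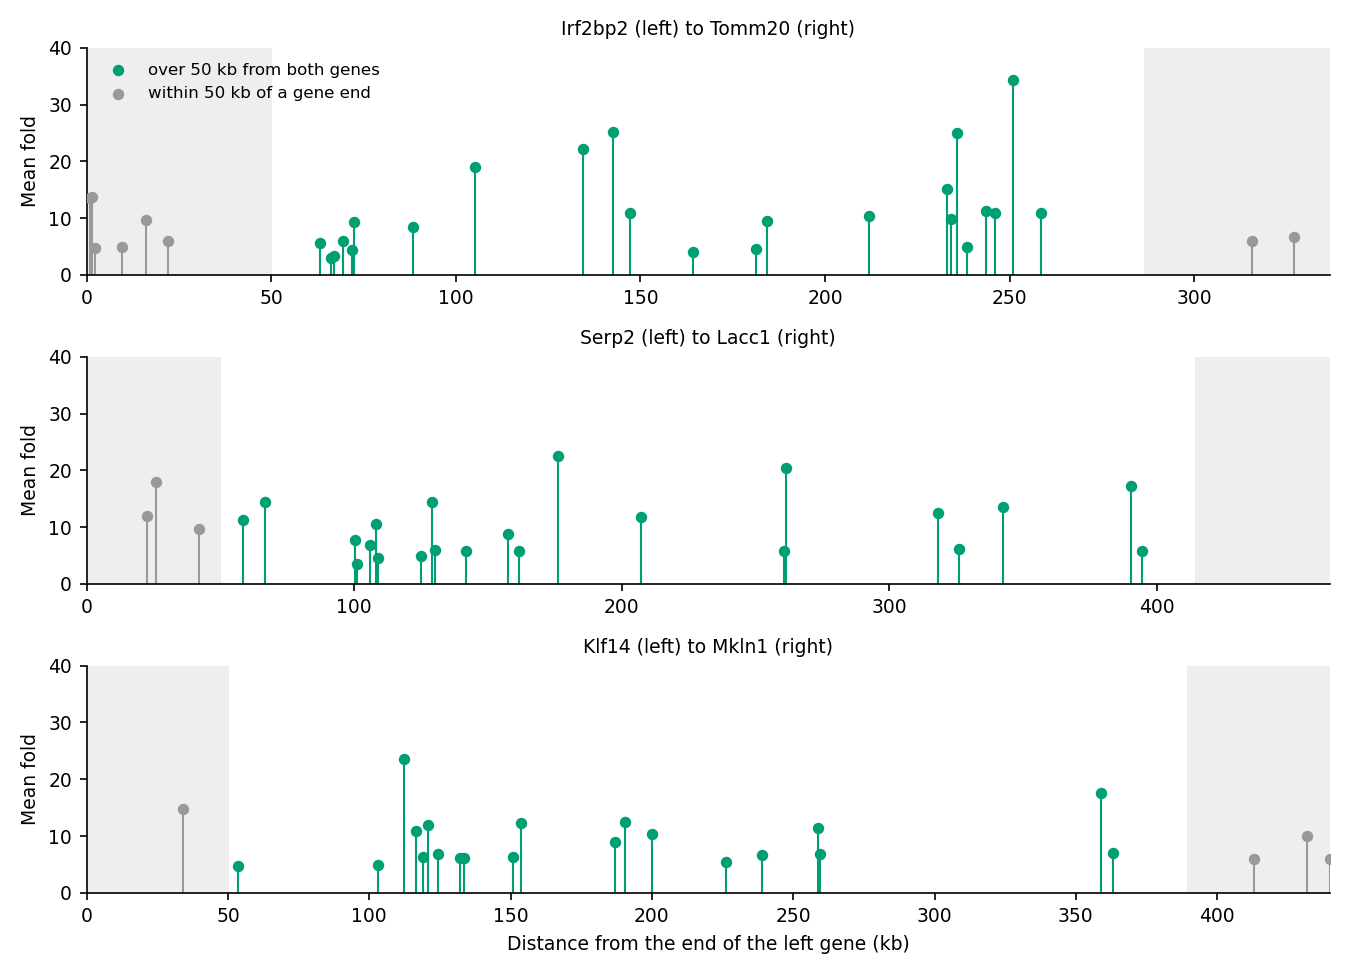
Mean fold of each four-antibody region (y axis) by its distance from the end of the left gene in kb (x axis) in the 3 gaps with the most remote regions; green regions are over 50 kb from both genes, grey ones lie in the shaded 50 kb beside a gene. The 23 green regions between Irf2bp2 and Tomm20 reach a mean fold of 34.3.

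Other gaps with at least 10 members flank genes with known parts in lung development. They included 17 members between Wdr11 and Fgfr2, the receptor gene for FGF signals to the epithelium, and 17 between Klf5 and Klf12. There were 14 between Irx3 and Irx5, 14 between Id2 and Rnf144a, 13 beside Sox2 on the side of Atp11b, 11 between Shh and Rnf32, and 10 each between Pax1 and Foxa2 and between Gata6 and Rbbp8. These gaps were picked by name from the 58. Medians of their mean folds lay between 6.44 beside Gata6 and 9.11 beside Id2. The gap between Mbip and Nkx2-1 itself, chosen after its values were seen, held 6 members at 62.7 to 117 kb from Nkx2-1, with mean folds of 4.65 to 14.2.

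By nearest gene, members fell beside 1211 genes, and 571 of these had just 1. Zfp608 had 24, Foxa2 18 and Tbl1xr1 16. Of all 21774 protein-coding genes 5.56% were nearest to a member, and of the 4709 genes that flank a gap 25.5%. The lists below are read beside both values, since a gene that flanks no gap could be nearest to a member only beyond the outermost gene of a chromosome. Neither value is matched for gap size. Of gaps of 100 to 200 kb 17.5% held a member, of 200 to 500 kb 38.5%, of 500 to 1000 kb 47.2% and of larger ones 53.0%. How far gap size moves the shares of the lists was not tested.

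Genes for transcription factors of the lung were often the landmark. Of 54 listed, 33 were nearest to a member (61.1%), which is 84.6% of the 39 that flank a gap, with 163 members and a median mean fold of 7.39. Besides Foxa2, a forkhead factor of endoderm, with 18 members, Id2 had 13, Irx5 and Klf6 11 each and Irx1 10. The best member beside Id2 (chromosome 12, 25215081 to 25215881, 119 kb away) had folds of 23.1, 31.5, 23.3 and 28.7. Beside the Iroquois factor genes Irx5 and Irx1 the best members lay 253 and 425 kb away, at mean folds of 23.0 and 21.9. Irx3 and Irx5, and Irx1 and Irx2, share a gap each and are not independent. In the wider families of developmental factors, 60 of 286 genes (21.0%) were nearest to a member, or 44.4% of the 135 beside a gap.

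Like most of the 21774 protein-coding genes, of which 4709 flank a gap, most alveolar marker genes flank none. Their shares stand beside 5.56% of all genes and 25.5% of genes that flank a gap. Of 30 AT1 genes 11 flank one, and 5 were nearest to a member (16.7% of the list, 45.5% of the 11), with 11 members and a median mean fold of 11.4. The vascular growth factor gene Vegfa had 6, the best 73.6 kb away (chromosome 17, 45943149 to 45943784) at folds of 27.2, 37.2, 27.4 and 35.3. Cav1, the caveolin gene, had 1 at 59.1 kb with folds of 16.9, 26.4, 14.4 and 26.3, and Sema3e 1 at 65.5 kb with a mean fold of 13.5. Clic5 and Tspan8 were the others. Of 30 AT2 genes 8 flank a gap, and 5 were nearest to a member (16.7% of the list, 62.5% of the 8), with 23 members and a median of 10.4. Fgfr2 had 12, the best at 93.9 kb (chromosome 7, 130068337 to 130068756) with folds of 24.5, 37.4, 24.2 and 32.5. Slc34a2, the phosphate transporter gene of AT2 cells, had 5, the best at 66.4 kb with folds of 21.0, 29.8, 19.1 and 27.6. Fabp5 had 1 at 51.6 kb with a mean fold of 21.9, and Acsl4 and Egfl6 were the other two.

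Signal ligands gave 14 of 44 genes (31.8%, or 50.0% of 28 beside a gap). After Vegfa, the best members lay 96.5 kb from Shh, the hedgehog ligand of lung epithelium (chromosome 5, 28563115 to 28563979), at folds of 23.9, 33.4, 23.3 and 30.2, and 51.3 kb from Bmp4 (chromosome 14, 46441584 to 46442349), at 22.4, 30.9, 22.5 and 33.6. Of 52 guidance and adhesion genes 19 were nearest to a member (36.5%, or 41.3% of 46). Their best stood 215 kb from Cdh6 at a mean fold of 30.1, 1410 kb from Efnb2 at 23.0 and 52.3 kb from Sema6d at 17.0. In the cadherin and protocadherin family 9 of 34 genes (26.5%, or 36.0% of 25) were nearest to a member.

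Markers of other lung cells are read beside the same shares, 5.56% of all genes and 25.5% of genes that flank a gap. Of 27 mesenchymal genes 6 were nearest to a member (22.2%, or 42.9% of 14), with 9 members and a median mean fold of 5.86. Beside Myocd, a co-activator gene of smooth muscle, the best member was at folds of 18.9, 28.3, 15.8 and 23.5, and beside Dcn and Tbx5 at mean folds of 8.50 and 5.86. The endothelial list gave 3 of 25 genes (12.0%, or 37.5% of 8), Sox17, Cdh5 and Ednrb, with best mean folds of 8.68, 6.83 and 4.36. Among 28 immune genes, 1 was nearest to a member, Ptprc (3.57%, or 50.0% of the 2 that flank a gap). Of 1474 chemoreceptor genes, 3 (0.204%) were nearest to a member, and 103 flank a gap. Most of their 21 members were the clusters at chromosome starts beside Vmn1r2 and Olfr161. Differences between lists were not tested, and lists share genes.

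**Figure D5:**
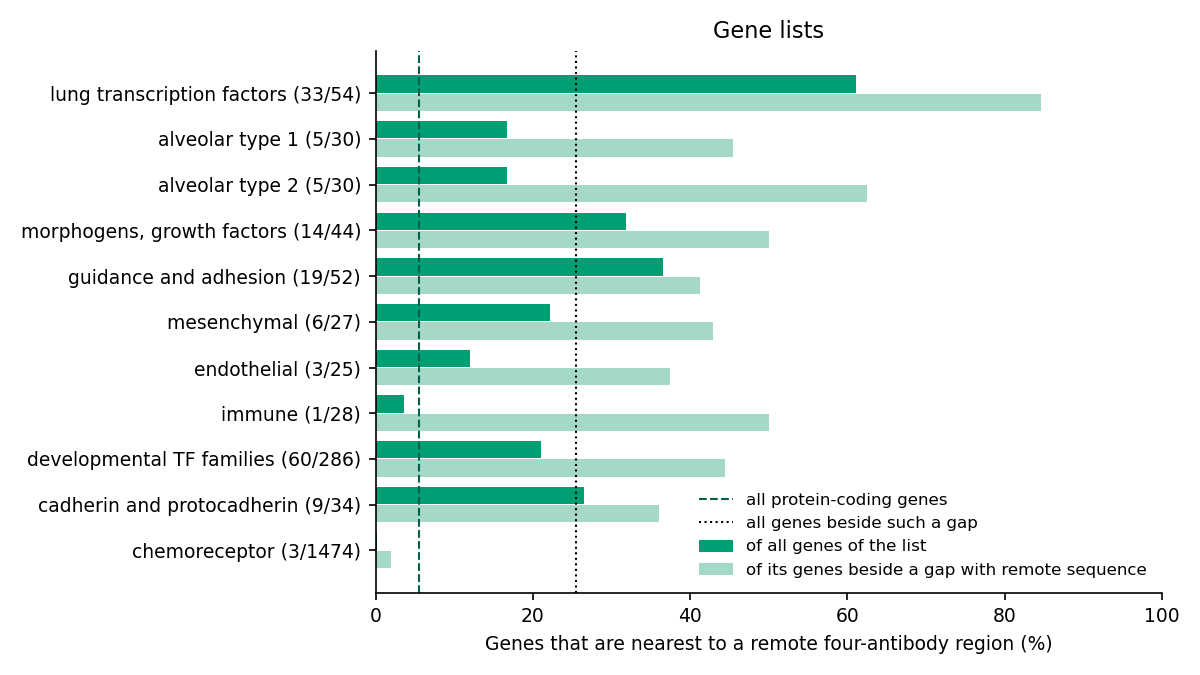
Percent of genes nearest to a remote region (x axis) for each list (y axis, with counts); dark bars are shares of the whole list, light bars of its genes beside a gap, and the dashed and dotted lines are the same shares over all protein-coding genes, 5.56% and 25.5%. Lung transcription factors reach 61.1% and 84.6%, and chemoreceptors 0.204% and 1.94%.

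Nearest genes often also had a four-antibody region at an end. Such a region lay within 1 kb of an end for 500 of the 1211 nearest genes (41.3%, 38.5 to 44.1). The background was 33.3% over all genes, 27.0% over genes beside a gap, and 22.1% (20.8 to 23.5) over genes beside a gap that were not nearest to a member. Restricted to the 10000 peaks of highest fold in each list, the shares were 6.44% of the nearest genes and 5.96% of all genes. With non-coding genes counted as genes, the direction turned, with 16.0% of the nearest genes and 19.4% of all genes. Of the lists, 18 of 33 nearest lung transcription factor genes had such a region, 3 of 5 AT1 genes, 2 of 5 AT2 genes, 4 of 14 ligand genes, 4 of 19 guidance and adhesion genes and 23 of 60 genes of developmental transcription factor families. Of the mesenchymal, endothelial and immune genes 0 of 6, 0 of 3 and 0 of 1 had one, and of the cadherin and chemoreceptor genes 0 of 9 and 0 of 3. A gene's 5′ end was the nearer end for 1341 of 2324 members whose gene has a strand in the promoter table (57.7%), beside 57.5% of regions at 1 to 50 kb.

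Many members lay inside lncRNA genes. These held 767 members (24.5%, 23.0 to 26.0). Between the outermost genes of the chromosomes the share was 24.8% in 10.4% of the remote sequence. At 1 to 50 kb it was 19.0% of the regions in 11.7% of the sequence, or 17.1 regions per Mb inside lncRNA genes and 9.63 outside. At 50 to 100 kb from a protein-coding gene end, members between the outermost genes numbered 12.1 per Mb inside lncRNA genes and 4.80 outside. At 100 to 200 kb the values were 8.20 and 3.61, and beyond 200 kb 4.21 and 1.37. Fold did not follow this split, with medians of the mean fold of 7.43 inside and 7.47 outside. In all, 472 of the 12637 lncRNA genes held a member, and the number that lie in remote sequence is not given here. Gm31718 beside Tomm20, Gm12610 beside Cdkn2b, Gm32622 beside Slc4a3 and Lncpint held 9 each, with best mean folds of 34.3, 28.9, 24.2 and 12.5. Gm30301 beside Slc34a2 held 5, the best at 24.4. With non-coding genes counted as genes as well, 657 regions remained more than 50 kb from any gene end, with a median mean fold of 7.66.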

How the data were processed

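NKX2-1 ChIP-seq of whole lung at postnatal day 10 was deposited as 1 peak table per antibody. MACS 2.1.2 was run by the authors on each library against the same input, with q under 0.05, a genome of 1.87 Gb and 1 tag per position, per the file headers. The submitters' processing notes also name deepTools, SAMtools, Bowtie, Trimmomatic and FastQC, and the build mm10. Other versions are not given in the sources used here. Per the file headers, the values are the pileup signal at the summit, the fold enrichment as a ratio, and −log10 of the p-value and q-value. The fold and pileup are the authors' values and serve to describe and rank peaks. Filtered tags were 46547989, 43031331, 46472700 and 44777214. For 59.3% to 60.8% of the members the local background was the genome-wide value, so that the fold there was a pileup over a constant.

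Regions were merged, placed and counted with pandas 2.3.3, NumPy 2.4.6 and SciPy 1.17.1 in Python 3.11.15, after a check on simulated peaks, and drawn with matplotlib 3.10.9. Genes were 21774 protein-coding genes of RefSeq GRCm38.p6. Another 113 listed with coordinates of unplaced or alternate scaffolds were left out. The strand of genes came from the promoter table, where 9533 of 12637 lncRNA genes matched. Motifs had been planned for all regions, and were searched in promoter windows, since no genome was used here. The members, the 8 gene lists and 3 gene families and the tests were chosen with earlier results of these data known. Named members were the 10 highest by mean fold percentile, the 5 farthest, the 3 nearest to the distance limit on each side, the 3 gaps with most members, up to 3 genes of each list by their best member, and the 3 with the widest ratio between libraries. Other names were chosen after their values were seen. With 1 library per antibody no test between groups was run. Alternatives were other distances, stricter peaks, other summits, non-coding genes and each antibody left out.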

Additional observations from a re-analysis of the deposited data

How the results depend on the processing

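With 7 results and 16 alternatives, 88 of 112 values stayed within 1.5 times the main count or density, the interval of the main percent, or the SD of the 4 antibody medians (1.53). The comparison of nearest genes with all genes for a region at an end turned its direction in 1 alternative. With limits of 25 kb and 100 kb, 14.8% and 5.88% of the four-antibody regions were remote, beside 1865 and 717 nearest genes, and 1859 regions remained at 100 kb. Peaks with a fold of at least 5 left 1812 remote regions, a median mean fold of 10.4 and 1.85 regions per Mb. Of the nearest genes at this setting 22.8% had a region at an end, beside 18.6% of all genes. The 10000 peaks of highest fold per list left 850 remote regions (11.7%) with a median of 14.6, 528 nearest genes and 0.870 regions per Mb. Of these regions 10.9% were among the top 10%, and 6.44% of the nearest genes had a region at an end, beside 5.96% of all genes. With non-coding genes counted as genes, the values were 657 regions (2.08%), 437 nearest genes, 1.44 per Mb and 16.0%, and the last lay under the 19.4% of all genes, whereas the main 41.3% lay above 33.3%. That share was 35.0% with a −log10 q-value of at least 5, beside 27.7% of all genes, and 32.6% with all summits within 100 bp, beside 27.4%. Fewer peaks or more genes enter these fits by construction, and no other cause was tested. Leaving out 1 antibody at a time gave 41.0% to 44.6% for that share, beside 33.3% to 36.9% of all genes. It moved no other result past the limits above. The 3 alternatives chosen after seeing the data, with scaffold genes included, without the members beyond the outermost genes and without those of high local background, moved none of the 7 results past them.

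No paired analysis was possible because each antibody has 1 library, so that no comparison between antibodies leaves a spread to test. Depth limits weak regions most, since the lowest pileup of a called peak was 12 to 13 tags. Enrichment at remote places rests on 1 input, whose tags were scaled up by 4.04 to 4.37 times.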

Other observations

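The antibodies kept the same order at most members. Both Millipore07-601 and Abcam133638 exceeded both other antibodies in depth-scaled pileup at 2499 of 3132 members (79.8%). At 20 members (0.639%) the order was turned round, and 6 of these were among the members beyond the outermost gene of a chromosome. In fold enrichment a promoter window member showed the turned order too. At the lncRNA Gm19619, 74.1 kb from the EGF receptor ligand gene Btc and between Areg and Btc, the folds were 16.0, 6.99, 16.4 and 4.83 (chromosome 5, 91282845 to 91283491). The best member nearest to Areg, in the same gene neighbourhood (chromosome 5, 91205243 to 91206021), had folds of 22.8, 34.9, 24.4 and 14.0. Both were singled out after their values were seen.

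Chromosomes differed in how many members their remote sequence held. Between their outermost genes the autosomes held 2.52 per Mb on chromosome 5 to 5.48 on chromosome 13, where 246 members lay. Chromosome X had 64 members in 75.3 Mb, or 0.850 per Mb, although these were 17.1% of its four-antibody regions. Chromosome Y had 0 members in 64.7 Mb. The labels used here give no sex, and the part of chromosome number or mappable sequence in these values was not tested.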
